A study of Homo sapiens with 13 samples.

Results

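In TE11 cells, 6 libraries carried the addition of 5-fluorouracil to chloroquine: 3 from cells that received 10 µM chloroquine together with 25 µM 5-fluorouracil (5-FU) and 3 from cells that received 10 µM chloroquine alone, all at 48 h. The members were chosen by treatment label and not by any measured value, and they are 6 of the 13 libraries of the series. TE11 is labelled as a human esophageal squamous cell carcinoma line, and chloroquine was present in both groups compared, so each difference compares cells with and without 5-FU where both had chloroquine. The other libraries, 4 from cells in 0.1% DMSO (vehicle) and 3 from cells in 25 µM 5-FU, gave the effect of 5-FU without chloroquine, which serves as the reference. A DMSO level is labelled for vehicle only, so a solvent difference in that reference effect cannot be told apart from 5-FU. RNA was sequenced from total RNA, the total counts of the 13 libraries ran from 17834539 to 23679833, and 19514 of 60591 genes passed a filter on low counts and were tested. Levels are CPM, counts scaled to a common library size by TMM, a factor that corrects for differences in RNA composition. Effects are log2 fold changes tested with edgeR's quasi-likelihood test. Their standard error was derived as the size of the effect over the square root of that test's F statistic. A gene is said to have risen or fallen where the adjusted p of the test was under 0.05. The labels do not say whether libraries of a group came from separate cultures. The p-values then measure only the spread between these samples, which may be technical.

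Chloroquine collects in lysosomes as a weak base, raises their pH and blocks the late steps of autophagy. 5-FU is a pyrimidine analogue whose metabolites inhibit thymidylate synthase and enter DNA and RNA, where they disturb replication and the maturation of ribosomal RNA. Cells answer such damage through p53, which induces genes of growth arrest and cell death, and they answer a shortage of amino acids or stress in the endoplasmic reticulum through ATF4, which induces amino acid transporters, tRNA synthetases and enzymes of serine and one-carbon metabolism. The series title asks about p53 signalling when chloroquine is used to sensitise cells to 5-FU.

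The libraries were checked against their label and for RNA of other tissues. Of 28 squamous differentiation markers 23 never exceeded 10 counts in the 6 libraries, as did 10 of 19 basal squamous markers, and over all 13 libraries KRT5 had 0 to 2 counts, TP63 0 to 3 and IVL 0 to 1, while VIM, a mesenchymal filament gene, had 12231 to 20614. KRT5, TP63 and IVL, defining markers of squamous epithelium, were thus at or near 0 in cells labelled as a squamous line. Other members of these lists were present: SOX2 had 192 to 353 counts, and the summed level in the 6 libraries was 242 to 269 CPM for the basal and 89.2 to 160 CPM for the differentiation markers. Chloroquine replicates 1 and 2 and combination replicate 2 also held transcripts of other tissues: the collagen gene COL1A2 had 607, 450 and 153 counts there and 3 to 5 in the other 3 libraries. The hemoglobin gene HBB had 136 and 88 counts in chloroquine 1 and 2 and 0 in combination 2. The summed level of 16 fibroblast markers was 71.5 to 168 CPM in chloroquine and 89.3 to 108 CPM in the combination, and that of 20 leukocyte markers 21.6 to 39.5 and 18.8 to 20.3 CPM. The summed level of 18 pancreas and salivary acinar markers was 2.75 to 43.1 CPM in chloroquine and 1.85 to 4.22 CPM in the combination. The source of these reads is not known, and in bulk samples fewer cells of a type and less RNA per cell cannot be told apart. Results are given with these 3 libraries and, where it changes the picture, from chloroquine 3 against combination 1 and 3, a fit that also leaves out vehicle 4 and 5-FU 2 and in which the single chloroquine library is assumed to vary like the others. Mitochondrial transcripts took 2.60 ± 0.35% of counts in chloroquine and 2.76 ± 0.13% in the combination (SD, n = 3 each).

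Adding 5-FU to chloroquine changed genes in both directions. Of the 19514 genes tested, 4846 rose (24.8%) and 5021 fell (25.7%), and the median log2 fold change of all genes was -0.013. TMM centres the bulk of genes near 0 and so sets this balance: with library size alone as the scale 5534 rose and 4379 fell, around a median of 0.039. Changes of at least 1 on the log2 scale were fewer, at 915 rises (4.69%) and 862 falls (4.42%). The 3 combination libraries all lay above the 3 chloroquine libraries in 5795 genes (29.7%) and all below them in 6014 (30.8%). Without the libraries that hold transcripts of other tissues 3243 genes rose and 3569 fell, of which 3057 and 3388 were among those above. The plot of fold change against level names the genes of the largest changes. The plot of effects with and without those libraries shows how far they shared direction. Across the 19072 genes tested in both fits, which share libraries, Pearson r was 0.90, a description. The fit without those libraries called fewer genes in both directions, and fewer libraries alone can lower such counts. Its list counts below are to be read beside its totals, and a lower count was not tested as an effect of the other transcripts.

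**Figure D1:**
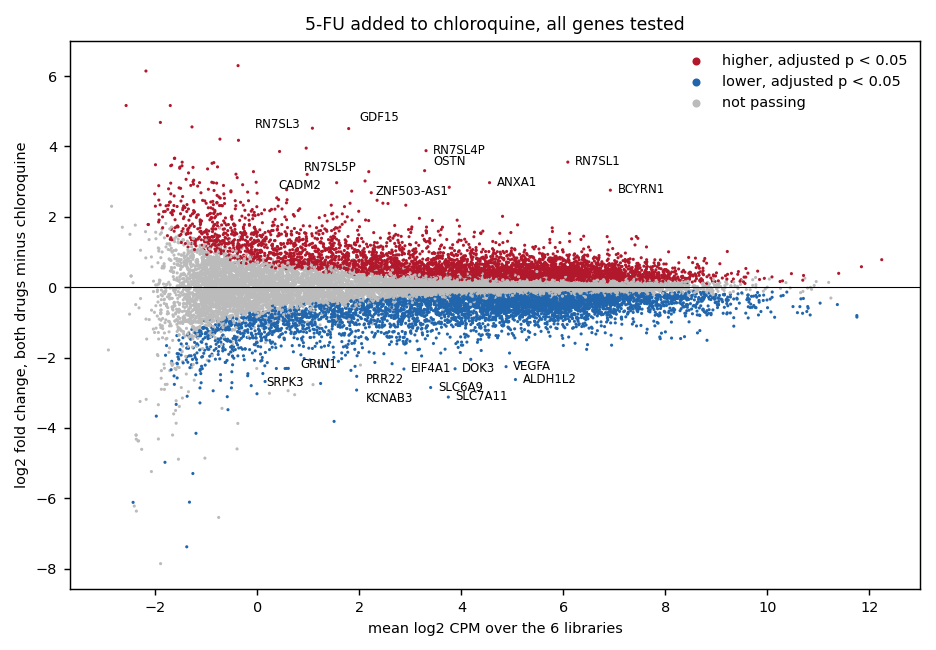
Each point is 1 of 19514 genes, with its mean log2 CPM over the 6 libraries on the horizontal axis and its log2 fold change, both drugs minus chloroquine, on the vertical axis. Red and blue points rose and fell, grey points did not pass, and the named genes reach from -3.12 (SLC7A11) to 4.52 (RN7SL3).

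**Figure D2:**
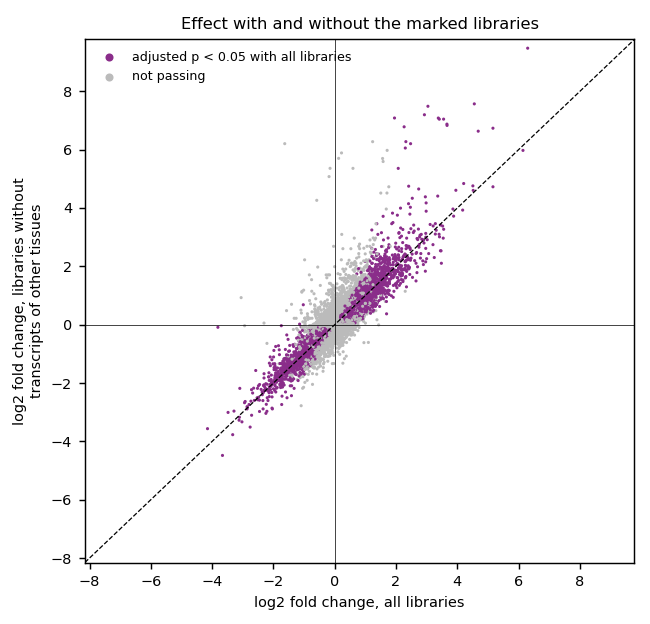
Log2 fold change of each gene tested in both fits, with all libraries (horizontal) against that without the libraries that hold transcripts of other tissues (vertical), purple where the first passed. Most called genes lie along the dashed line of equality, and a few called genes reach higher values without those libraries.

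Among called genes whose mean log2 CPM over the 6 libraries reached 1, whose groups did not overlap and whose symbols are not clone names, the largest rises outside the RN7SL family, which is described further on, were in GDF15, OSTN, ZNF503-AS1, ANXA1, CADM2 and BCYRN1. GDF15, a p53 target that encodes a secreted stress cytokine, had 0.872, 0.588 and 0.565 CPM in chloroquine 1 to 3 and 15.1, 15.9 and 15.9 CPM in combination 1 to 3, or 4.51 ± 0.193 on the log2 scale (edgeR adjusted p = 8.13e-10). ANXA1, which encodes the phospholipid-binding protein annexin A1, went from 8.22, 9.32 and 7.4 to 63.1, 66.3 and 67 CPM (log2 2.97 ± 0.12). Separation of the groups was required by the naming rule, and the combination libraries lay close together for both genes. OSTN, which encodes the secreted peptide osteocrin, rose by 3.31 ± 0.149. ZNF503-AS1 rose by 3.02 ± 0.155, and as an antisense RNA it is uncertain, since the sources used here do not give the strand setting of the counting. CADM2, a cell adhesion gene, rose by 2.97 ± 0.168.

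By the same rule the largest falls were in SLC7A11, KCNAB3, SLC6A9, SRPK3, ALDH1L2, PRR22, GRIN1, EIF4A1, DOK3 and VEGFA. SLC7A11, which encodes the cystine importer that feeds glutathione synthesis, had 37.9, 36.7 and 42.9 CPM in the chloroquine libraries and 4.76, 4.58 and 4.11 CPM in the combination (log2 -3.12 ± 0.0871, edgeR adjusted p = 5.17e-11). SLC6A9, a glycine transporter gene, went from 28, 28.6 and 27.1 to 4.03, 4 and 3.57 CPM (log2 -2.85 ± 0.103). Separation of the groups was part of the rule for both transporters. VEGFA, the angiogenic growth factor gene, had 65.7, 64.8 and 61.1 and 13.4, 13.2 and 13.5 CPM, a log2 fold change of -2.26 ± 0.0859. EIF4A1, which encodes the helicase of the cap-binding complex, had 17, 15.5 and 15.9 and 2.81, 3.28 and 3.57 CPM, with a log2 fold change of -2.32 ± 0.127. EIF4A1, SRPK3, KCNAB3 and PRR22 share exons with another protein-coding gene on the same strand in GENCODE 29, EIF4A1 with the readthrough gene SENP3-EIF4A1 and SRPK3 with PLXNB3, so their reads could be split and these 4 are uncertain one by one. Of 213 genes named by rule, 91 share exon sequence with a gene on the opposite strand, among them SLC7A11, SLC6A9, VEGFA, ALDH1L2, SHMT2, CDKN1A, MDM2, FAS, SQSTM1 and NDUFB9, and without the strand setting their counts could include reads of that gene.

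Some of the gene groups that follow are linked to a short DNA element of their promoters, shown here because the values below turn on those genes. ATF4 binds with a C/EBP partner to composite sites, searched as TGATGNAAN on both strands of the RefSeq promoter window of 250 bases before to 50 after the start (GRCh38.p14). Of 27305 promoters of that length 3.67% held it, and 1.67% of the 11738 tested genes that had a promoter there. It was found in 6 of 16 aminoacyl-tRNA synthetase promoters (37.5%), 4 of 15 amino acid transporter promoters (26.7%), 3 of 24 promoters of integrated stress response genes (12.5%) and 1 of 13 of serine and folate enzymes (7.69%). Among tested genes that fell the share was 1.98%, and among those that rose 1.73%. A match is a description of letters and not a bound site. The 250 bases before the start of 4 such genes and of GAA, a lysosomal gene, are given 5′ to 3′ on the gene's own strand, with matches in capitals. ASNS and CHAC1 are the strongest falls of the integrated stress response list, AARS1 is a synthetase gene that holds the element and rose, and MTHFD1L, a mitochondrial folate enzyme, was chosen for its match after values were seen. Of synthetases with a promoter there, the element was in 5 of 8 that fell and in 1 of 4 that rose, AARS1.
ASNS, chr7:97872409-97872658, minus strand: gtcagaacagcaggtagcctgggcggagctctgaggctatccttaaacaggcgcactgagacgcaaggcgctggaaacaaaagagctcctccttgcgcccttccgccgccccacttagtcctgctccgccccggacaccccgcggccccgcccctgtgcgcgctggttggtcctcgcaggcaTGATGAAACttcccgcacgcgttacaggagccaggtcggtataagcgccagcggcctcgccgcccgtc
CHAC1, chr15:40953221-40953470, plus strand: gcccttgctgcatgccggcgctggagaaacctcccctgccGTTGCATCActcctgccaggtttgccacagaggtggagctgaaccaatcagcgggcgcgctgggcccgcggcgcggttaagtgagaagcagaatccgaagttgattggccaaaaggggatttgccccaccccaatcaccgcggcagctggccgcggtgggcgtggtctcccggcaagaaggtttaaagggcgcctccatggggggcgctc
MTHFD1L, chr6:150866236-150866485, plus strand: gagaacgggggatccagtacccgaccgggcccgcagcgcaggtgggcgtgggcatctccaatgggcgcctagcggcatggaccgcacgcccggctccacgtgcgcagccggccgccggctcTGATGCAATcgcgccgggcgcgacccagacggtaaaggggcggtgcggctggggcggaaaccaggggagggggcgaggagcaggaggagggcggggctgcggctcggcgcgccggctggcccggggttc
AARS1, chr16:70289507-70289756, minus strand: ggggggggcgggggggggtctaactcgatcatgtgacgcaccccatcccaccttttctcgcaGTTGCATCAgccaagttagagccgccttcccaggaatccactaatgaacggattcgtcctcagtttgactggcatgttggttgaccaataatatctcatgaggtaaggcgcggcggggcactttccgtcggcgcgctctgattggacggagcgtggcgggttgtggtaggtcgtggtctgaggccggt
GAA, chr17:80101331-80101580, plus strand: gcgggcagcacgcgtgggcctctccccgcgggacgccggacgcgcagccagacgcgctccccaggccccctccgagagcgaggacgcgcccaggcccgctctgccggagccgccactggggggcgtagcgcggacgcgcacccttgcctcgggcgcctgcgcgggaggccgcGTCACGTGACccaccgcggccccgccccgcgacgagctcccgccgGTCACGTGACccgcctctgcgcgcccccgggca
The match began 68 bases before the start in ASNS, 210 in CHAC1, 129 in MTHFD1L and 188 in AARS1, and in CHAC1 and AARS1 it reads on the other strand. GAA holds none of these sites but the CLEAR element bound by TFEB and its relatives, whose letters are the capitals in its sequence and read the same on both strands, at 78 and 33 bases before the start. That element was in 2 of 36 lysosomal promoters (5.56%) in 0.381% of all 27305 and in 0.741% of the 11738 tested genes that had a promoter there.

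Genes of the amino acid response mostly fell in the combination, whereas GDF15 and DDIT3, also of the stress response list, rose. Of 18 amino acid transporter genes tested 14 fell, 3 rose and 1 did not pass (median -0.68). Of 20 serine and folate enzymes 15 fell, 1 rose and 4 did not pass (median -0.43), and of 20 aminoacyl-tRNA synthetases 11 fell, 5 rose and 4 did not pass (median -0.36; 10 falls and 3 rises without the libraries that hold other transcripts). Of 27 integrated stress response genes 14 fell, 8 rose and 5 did not pass (median -0.26). These 4 lists share no members. On the mean over members, relative to vehicle, the integrated stress response list was at 0.55 log2 CPM with chloroquine and 0.36 in the combination. With 5-FU alone it was at 0.24, so the combination stayed above vehicle and above 5-FU there. In the combination the transporters (-0.52), serine and folate enzymes (-0.65) and synthetases (-0.52) were below vehicle.

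ATF4 itself, the transcription factor of the pathway, had 845, 869.9 and 907 CPM in chloroquine and 474, 459 and 506 CPM in the combination, or -0.87 ± 0.0454 on the log2 scale (edgeR adjusted p = 4.32e-09). ASNS, asparagine synthetase, went from 4.64, 6.2 and 5.65 to 1.77, 1.3 and 1.04 CPM (log2 -1.99 ± 0.193). CHAC1, which encodes a glutathione-degrading enzyme, went from 10.3, 11.4 and 8.7 to 2.68, 2.29 and 1.94 CPM (log2 -2.14 ± 0.146). All 3 genes were lower in each combination library than in any chloroquine library. For CHAC1 the chloroquine libraries stood above the vehicle mean of 3.13 ± 0.324 CPM and the combination below it, while 5-FU without chloroquine left it at 3 ± 0.247 CPM. DDIT3, the gene of the transcription factor CHOP, rose from 12.9, 13 and 15.8 to 54.4, 53.5 and 60.1 CPM (log2 2.01 ± 0.0896). DDIT3 shares exons with another annotated gene and overlaps genes on the opposite strand, so part of its count could be theirs.

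Among the serine and folate enzymes, ALDH1L2 and SHMT2, both mitochondrial, fell most. ALDH1L2 had 83.1, 81.4 and 82.7 CPM with chloroquine and 14.3, 12.7 and 13.1 CPM in the combination (log2 -2.62 ± 0.0936). SHMT2, serine hydroxymethyltransferase, went from 220.2, 219.5 and 214 to 67.9, 65.9 and 74.8 CPM (log2 -1.65 ± 0.0608). Both genes were below their vehicle means of 45.1 ± 3.37 and 255 ± 10.1 CPM in every combination library. MTHFD1L fell from 54.7, 55.4 and 57.2 to 27, 28.1 and 28.8 CPM. Among the synthetases QARS1, for glutamine, fell (log2 -1.36 ± 0.0742), whereas AARS1, for alanine, rose by 0.36 ± 0.0662 and FARSB, for phenylalanine, by 0.33 ± 0.0536. The plot of levels per library shows these genes beside p53 targets and others.

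**Figure D3:**
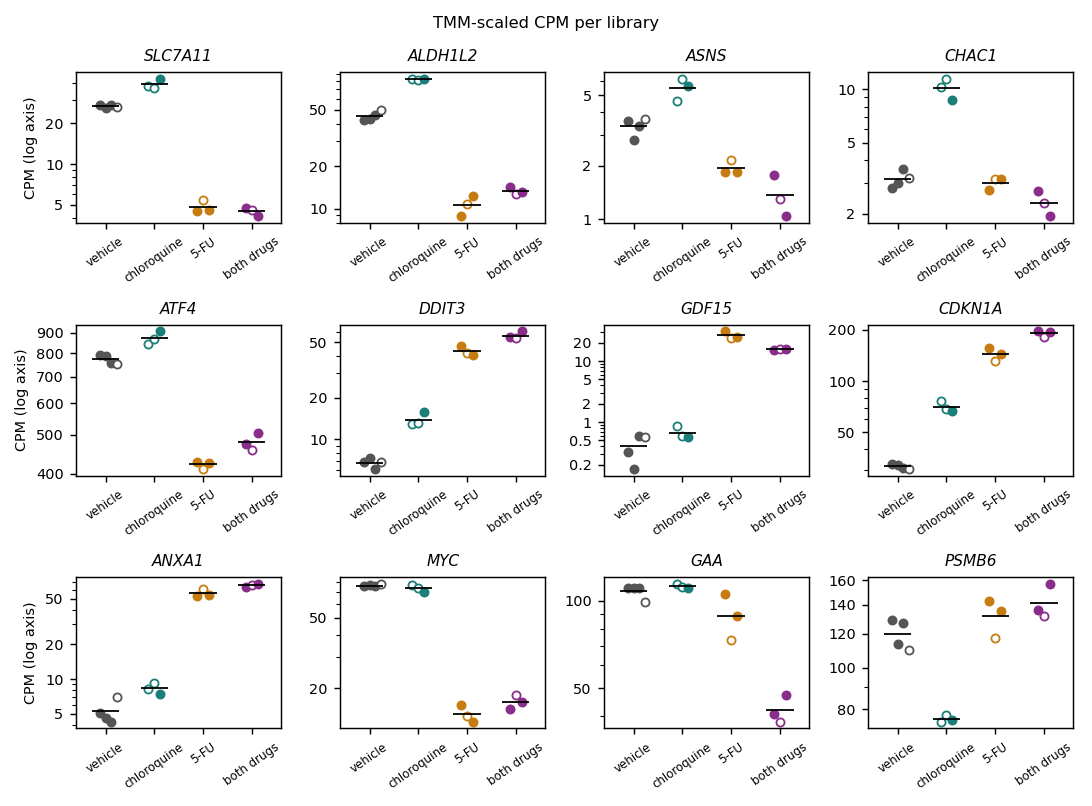
TMM-scaled CPM (log axis) of 12 genes in each of the 13 libraries by group. Horizontal bars are group means, and open circles mark libraries with transcripts of other tissues. SLC7A11, ALDH1L2, ASNS and MYC are low in both groups that had 5-FU, CHAC1 is high with chloroquine alone, GAA is lowest in the combination and PSMB6 is lowest with chloroquine alone.

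p53 targets of arrest and repair rose in the combination. Of 24 such genes 16 rose, 2 fell and 6 did not pass (median 0.71). Of 14 death genes 9 rose, 1 fell and 4 did not pass (median 0.47). CDKN1A, the gene of p21, an inhibitor of cyclin-dependent kinases, had 76.1, 68.5 and 66.7 CPM with chloroquine and 196, 181 and 196 CPM in the combination (log2 1.44 ± 0.0711, edgeR adjusted p = 2.7e-09). The groups did not overlap, and the vehicle mean was 31.7 ± 1.02 CPM. MDM2, the ubiquitin ligase gene that feeds back on p53, went from 104, 92.5 and 114 to 188, 188 and 195 CPM (log2 0.88 ± 0.0765). PHLDA3, an inhibitor of AKT, rose by 1.58 ± 0.126 and TP53I3, an oxidoreductase gene, by 1.96 ± 0.113. The lists of feedback regulators (3 of 8 rose, 1 fell) and of metabolism and stress genes (6 of 17 rose, 4 fell) were more divided.

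Among genes of cell death FAS, the death receptor, rose by 0.96 ± 0.104, BAX by 0.45 ± 0.106 and BAD by 1.13 ± 0.14, while BCL2L11, which encodes BIM, fell (log2 -0.69 ± 0.0532). BBC3, which encodes PUMA, was at 0.28 ± 0.113 and did not pass (edgeR adjusted p = 0.053), although its 3 combination libraries (27.1, 23.4 and 28.1 CPM) lay above the chloroquine libraries (22.4, 20.9 and 21.5 CPM). Of 4 pro-survival BCL2 genes BCL2L1 rose by 0.65 ± 0.101, and MCL1 fell (log2 -0.30 ± 0.0446). Of 16 caspases and inhibitors 7 rose and 2 fell.

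Genes of DNA replication fell more often than they rose, whereas histone genes more often rose than fell. Of 38 origin and fork genes 16 fell, 7 rose and 15 did not pass (median -0.11; 13 and 4 without the libraries that hold other transcripts). POLA1, a DNA polymerase subunit, went from 129, 127 and 131 to 55.9, 50.7 and 47.4 CPM (log2 -1.33 ± 0.0638), and LIG1, DNA ligase 1, from 91.8, 89.8 and 92 to 45.4, 42.1 and 43.6 CPM (log2 -1.06 ± 0.0583). Each combination library was below each chloroquine library in both. RRM2, the ribonucleotide reductase subunit, fell (log2 -0.80 ± 0.0563), and shares exons with another gene, so it is uncertain. TYMS, the enzyme that 5-FU metabolites inhibit, rose by 0.35 ± 0.0548. It overlaps genes on the opposite strand. Of 28 histone genes tested 11 rose, 1 fell and 16 did not pass (median 0.36), and H2BC11 rose by 1.49 ± 0.131. Of 43 mitosis genes 9 rose, 10 fell and 24 did not pass, a split near that of all genes. CCND1, cyclin D1, fell (log2 -1.45 ± 0.0592), and MYC, the growth-promoting transcription factor, went from 77, 73.9 and 70 to 15.3, 18.2 and 16.7 CPM (log2 -2.14 ± 0.0775, edgeR adjusted p = 1.58e-10). Of 13 genes of the MYC network 6 fell and 2 rose (5 and 1 without those libraries). ATR, a checkpoint kinase, and TP53BP1, a repair adaptor, fell (log2 -0.92 ± 0.0788 and -0.83 ± 0.0639), among 9 falls and 4 rises of 22 checkpoint genes (6 and 1 without the libraries that hold other transcripts).

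**Figure D4:**
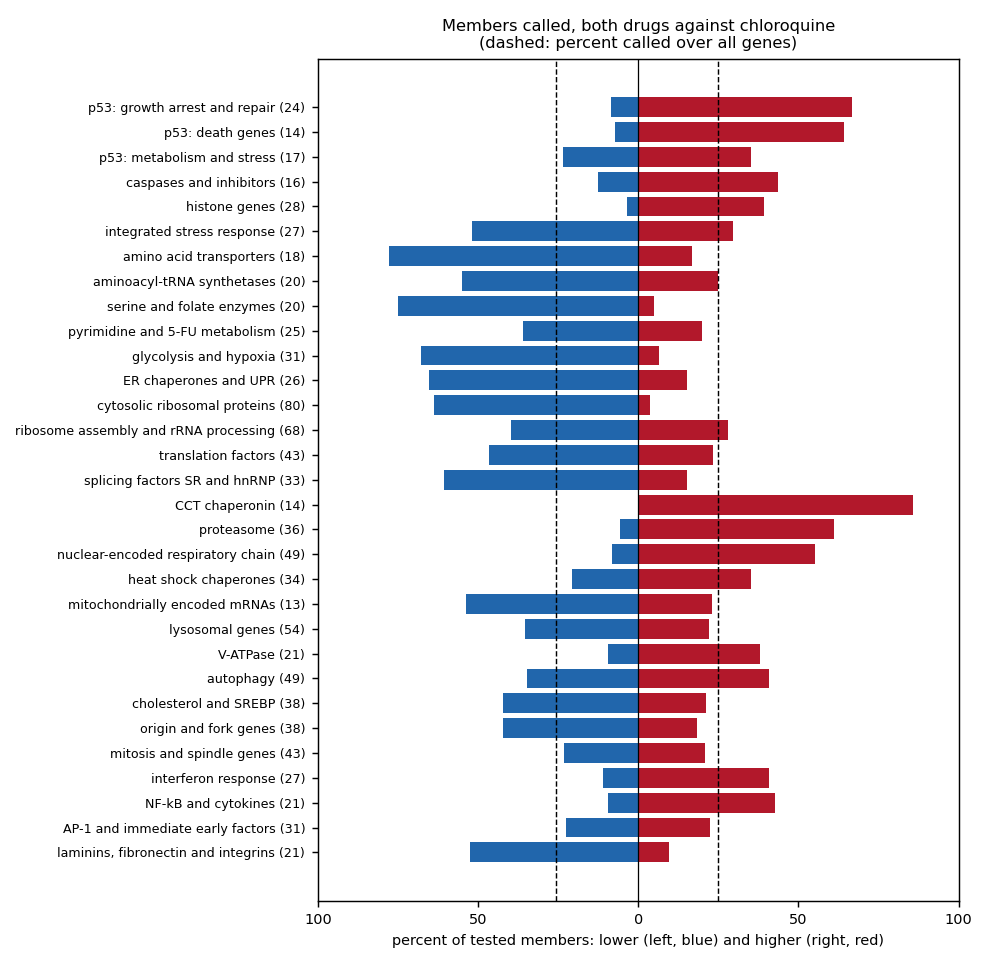
Percent of the tested members of 31 gene lists that rose (red, right) and fell (blue, left) when 5-FU was added to chloroquine, with the number tested in brackets and dashed lines at the 24.8% and 25.7% of all genes. Amino acid transporters, serine and folate enzymes and ribosomal proteins reach far to the left, and CCT chaperonin, proteasome and p53 targets of arrest far to the right.

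More ribosomal protein and splicing factor genes fell than rose, while more genes of CCT, the proteasome and the respiratory chain rose than fell. Of 80 cytosolic ribosomal protein genes 51 fell, 3 rose and 26 did not pass (median -0.34). RPL3 had 964, 956 and 932 CPM with chloroquine and 439, 432 and 453 CPM in the combination (log2 -1.11 ± 0.0606), and RPL13A fell (log2 -1.31 ± 0.0803). Since ribosomal protein genes have many pseudogenes of nearly the same sequence, single members are uncertain. Of 33 SR and hnRNP splicing factors 20 fell and 5 rose (median -0.22; 17 and 1 without the libraries that hold other transcripts), with HNRNPA1 at -1.41 ± 0.0746. Of 43 translation factors 20 fell and 10 rose (median -0.12), with EIF3L at -1.30 ± 0.0497 and EIF5 at 0.85 ± 0.0468. Ribosome assembly genes had 27 falls and 19 rises of 68 (median -0.09), and 24 and 10 without the libraries that hold other transcripts.

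CCT is the ring chaperonin that folds actin and tubulin, and prefoldin delivers its substrates. Of 14 CCT and prefoldin genes 12 rose, 0 fell and 2 did not pass (median 0.31), 8 and 0 without the libraries that hold other transcripts. PFDN4, a prefoldin subunit, had 21.4, 21.1 and 25.4 CPM with chloroquine and 43.3, 40.9 and 42.6 CPM in the combination (log2 0.91 ± 0.121, edgeR adjusted p = 2.43e-05). The combination libraries were near the vehicle mean of 37 ± 1.6 CPM and the chloroquine libraries below it. Of 36 proteasome genes 22 rose, 2 fell and 12 did not pass (median 0.25). PSMB6, a catalytic subunit, went from 75, 77.5 and 75.5 to 137, 132 and 157 CPM (log2 0.90 ± 0.0863), against a vehicle mean of 119.7 ± 9.62 CPM. Of 49 nuclear-encoded respiratory chain genes 27 rose, 4 fell and 18 did not pass (median 0.25; 16 and 3 without those libraries), with NDUFB9, a subunit of complex I, at 0.97 ± 0.0833. On the mean over members, relative to vehicle, the CCT genes were at -0.49 ± 0.059 log2 CPM with chloroquine and -0.14 ± 0.025 in the combination (SD between libraries, n = 3 each). The proteasome genes were at -0.36 ± 0.025 and -0.086 ± 0.034 and the respiratory chain genes at -0.27 ± 0.042 and -0.049 ± 0.063.

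**Figure D5:**
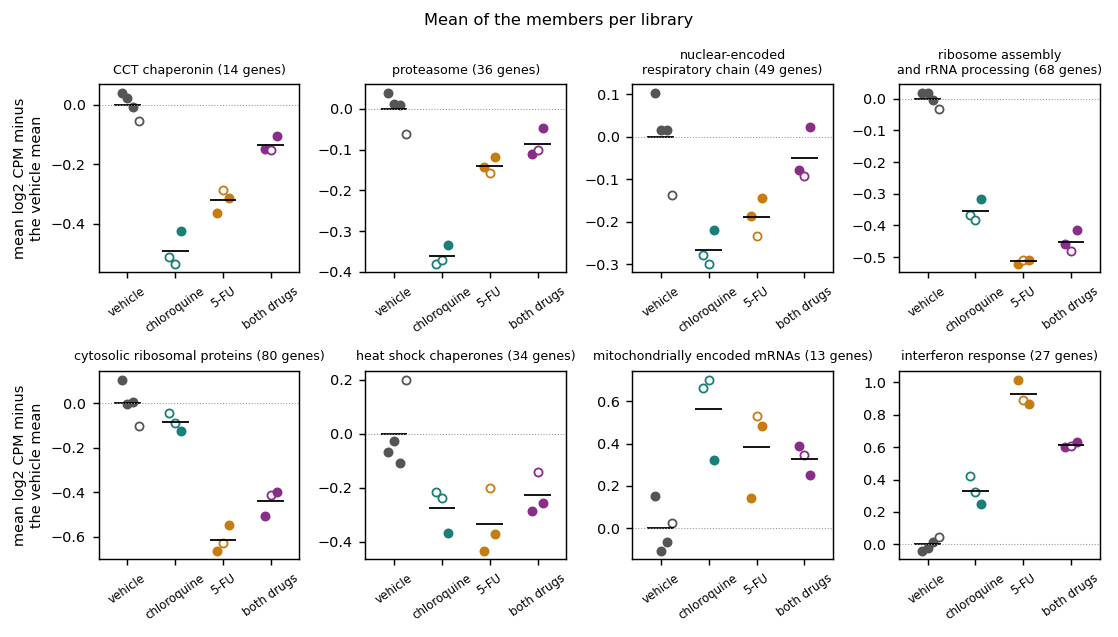
Mean log2 CPM of the members of 8 gene lists per library, minus the vehicle mean, with group means as bars and open circles for libraries with transcripts of other tissues. For CCT, proteasome and respiratory chain genes all 3 combination libraries lie above all 3 chloroquine libraries, and for ribosomal proteins below them.

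Heat shock chaperones were split between rises and falls: 12 of 34 rose, 7 fell and 15 did not pass (median 0.05). HSPB1, a small heat shock protein gene, rose by 1.13 ± 0.105. The inducible HSP70 genes HSPA1A and HSPA1B, whose sequences are so alike that reads of one can be counted for the other, fell (log2 -0.46 ± 0.0735 and -0.60 ± 0.0617). Of 26 endoplasmic reticulum chaperone and unfolded protein response genes 17 fell and 4 rose (median -0.23; 14 and 2 without the libraries that hold other transcripts), and ERO1A, an oxidase of disulfide formation, fell (log2 -0.63 ± 0.0668). Of 13 mitochondrially encoded mRNAs 7 fell and 3 rose (median -0.35), but 3 fell and 4 rose without the libraries that hold other transcripts, with a median of -0.22. MT-ATP6 had 2560.0, 2660.0 and 2023 CPM with chloroquine, lowest in replicate 3, and 1456, 1412 and 1323 CPM in the combination (log2 -0.79 ± 0.109, and -0.55 without those libraries).

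In lysosomal genes the changes went both ways, against 24.8% rises and 25.7% falls of all genes, and the share of rises was near that. Of 54 tested 12 rose, 19 fell and 23 did not pass (median -0.06), and 5 rose and 14 fell without the libraries that hold other transcripts. GPNMB, a glycoprotein gene of lysosomes and melanosomes, had 2.07, 1.85 and 1.47 CPM with chloroquine and 11.8, 12.1 and 11.1 CPM in the combination (log2 2.68 ± 0.164). GAA, acid alpha-glucosidase, whose promoter was shown with its pair of CLEAR elements, went from 114, 112 and 111 to 40.7, 38.3 and 47.2 CPM (log2 -1.42 ± 0.109, edgeR adjusted p = 1.41e-07). TPP1, a lysosomal peptidase gene, went from 160.1, 169 and 140.1 to 52.8, 51 and 47.6 CPM (log2 -1.63 ± 0.0838). The combination was below every chloroquine library for GAA and TPP1, and above them for GPNMB. LAMP1, a lysosomal membrane protein gene, was at 0.0087 ± 0.064 with overlapping groups (edgeR adjusted p = 0.923).

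The proton pump gave 8 rises and 2 falls among 21 V-ATPase genes (median 0.17). ATP6V0D2, a tissue isoform, had 0, 0.272 and 0.17 CPM with chloroquine and 2.64, 2.88 and 2.71 CPM in the combination (log2 4.17 ± 0.486), where its counts are few. Autophagy genes rose in 20 and fell in 17 of 49 (median 0.06): SQSTM1, the receptor p62, rose by 0.83 ± 0.101 and MAP1LC3B, which encodes LC3B, by 0.38 ± 0.0696, and ULK2, an initiating kinase, fell (log2 -0.72 ± 0.0599). Of 38 cholesterol and SREBP genes 16 fell and 8 rose (median -0.05; 12 and 4 without the libraries that hold other transcripts), with HMGCS1 at -0.45 ± 0.0616, LSS, lanosterol synthase, at -0.85 ± 0.0911 and SREBF1 at -0.99 ± 0.153. Of 31 glycolysis and hypoxia genes 21 fell and 2 rose (median -0.32; 18 and 1 without those libraries), and PDK1, pyruvate dehydrogenase kinase 1, fell (log2 -1.87 ± 0.0708).

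Among signalling genes the interferon list had 11 rises and 3 falls of 27 (median 0.30). IRF7, an interferon regulatory factor, rose by 1.39 ± 0.19, whereas STAT2, a signal transducer of interferon, went from 48.8, 45.6 and 50.9 to 26.3, 29 and 27 CPM (log2 -0.82 ± 0.0645). NF-kB and cytokine genes rose in 9 and fell in 2 of 21 (median 0.19; 5 and 2 without the libraries that hold other transcripts), and LIF, an interleukin 6 family cytokine, rose from 1.33, 1.67 and 1.24 to 5.89, 5.57 and 5.6 CPM. Of 21 laminin, fibronectin and integrin genes 11 fell and 2 rose (median -0.39; 8 and 2, median -0.27, without those libraries), with LAMA1 at -1.60 ± 0.101 and LAMB3 at 2.08 ± 0.248. On the mean over these matrix and integrin genes, relative to vehicle, chloroquine 1 and 2 were at 0.69 and 0.72 log2 CPM and chloroquine 3 at 0.30, and combination 2 was at 0.43 and the other combination libraries at 0.13 and 0.14, so that the libraries with other transcripts were the higher ones in each group. AP-1 and immediate early factors rose in 7 and fell in 7 of 31, a split near that of all genes (median 0.02, and -0.095 without those libraries). KRT8, an epithelial keratin named from the marker list after its value was seen, had 64 to 73 counts with chloroquine and 357 to 389 in the combination.

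The effect of 5-FU differed according to whether chloroquine was present. The difference of the 2 effects, that with chloroquine minus that without, passed in 7791 genes (39.9%), higher in 4019 (20.6%) and lower in 3772 (19.3%). With library size alone as the scale the split was 2379 higher and 5063 lower, and the median difference of all genes shifted from -0.0021 to -0.14. The 2 effects had a Pearson r of 0.52 across 19514 genes, and the 2 comparisons share no library. Of the genes that rose with 5-FU alone (6003, 30.8%), 2787 also rose here and 744 fell, and of those that fell (5756, 29.5%) 2955 also fell and 570 rose. Each of the 744 and 570 genes with opposite calls also passed for the difference, which follows almost by construction from 2 called effects of opposite sign.

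For the folding and turnover genes the 2 effects and their difference were counted list by list. In the CCT list 11 of 14 genes fell and 0 rose with 5-FU alone, and the difference was positive in 13 and negative in 0. In the proteasome list 17 of 36 fell and 3 rose with 5-FU alone, and the difference was positive in 31 and negative in 0. For the respiratory chain the counts were 21 falls and 4 rises of 49 and 33 positive and 0 negative differences. With library size alone the positive and negative differences were 13 and 0, 22 and 1, and 24 and 2. Ribosome assembly genes fell in 56 and rose in 1 of 68 with 5-FU alone, and the difference was positive in 52 and negative in 2. PFDN4 differed by 1.04 ± 0.164, PSMB6 by 0.76 ± 0.117, NDUFB9 by 0.62 ± 0.113 and RPF1, a ribosome biogenesis gene, by 0.89 ± 0.0925.

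RPF1 and HSPA1A show how the levels lie behind such differences. RPF1 was at 133 ± 2.39 CPM in vehicle, 114 ± 12.9 with 5-FU, 87.6 ± 3.72 with chloroquine and 139 ± 0.672 in the combination. HSPA1A was at 174 ± 5.51 CPM in vehicle, 45.2 ± 5.1 with 5-FU, 44.8 ± 0.612 with chloroquine and 32.5 ± 1.73 in the combination. The 5-FU effect on HSPA1A was thus -1.95 alone and -0.46 on chloroquine, a difference of 1.48 ± 0.099, and that on HSPA1B -2.13 and -0.60, a difference of 1.53 ± 0.0831. Both HSP70 copies had already been low with chloroquine.

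Other genes differed downward, some p53 targets and stress genes among them. The p53 targets GDF15 (5.95 alone and 4.51 on chloroquine, a difference of -1.45 ± 0.354) and CDKN1A (2.19 and 1.44, -0.75 ± 0.0979) rose in both, by less where chloroquine was present. CDKN1A was at 70.5 ± 4.99 CPM under chloroquine, 144 ± 13.1 CPM under 5-FU and 191 ± 8.59 CPM under both. GDF15 was at 0.675 ± 0.171, 26.5 ± 3.59 and 15.6 ± 0.485 CPM in that order. The mean of the arrest and repair list over vehicle, in log2 CPM, was 0.28, 0.95 and 1.00 in the same order. That of the death list was 0.42, 0.94 and 0.95. The level under both drugs was thus not below that under 5-FU for CDKN1A or these lists, but was for GDF15. In the arrest and repair list 8 of 24 differences were negative, 5 positive and 11 did not pass (median -0.07). PHLDA3 differed by -0.062 ± 0.172, TP53I3 by -0.12 ± 0.153 and FAS by -0.25 ± 0.144, none of which passed, and MDM2 differed by 0.41 ± 0.104. In the death list 7 of 14 differences were negative and 2 positive, and in the AP-1 list 15 of 31 and 2. CHAC1 differed by -2.07 ± 0.203 and ASNS by -1.21 ± 0.262, and 15 of 27 integrated stress response genes differed downward and 4 upward. GAA was at -0.28 alone and differed by -1.14 ± 0.146.

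NEIL1, STAT2, LIG1 and SNHG12 fell here and rose with 5-FU alone. NEIL1, a DNA glycosylase gene, was at 19.9 CPM in vehicle, 48.4 with 5-FU, 36.5 with chloroquine and 23.1 in the combination, a difference of effects of -1.94 ± 0.0918. STAT2 went from 33.4 to 57.7 CPM without chloroquine and from 48.5 to 27.4 CPM with it (-1.61 ± 0.0873). LIG1 differed by -1.25 ± 0.0783 and SNHG12, a host gene of small nucleolar RNAs, by -1.56 ± 0.0745. NEIL1, LIG1 and SNHG12 share exon sequence with genes on the opposite strand and MT-ATP6 with MT-ATP8 and MT-CO3 on the same strand, so part of their counts could belong to those genes. MT-ATP6 differed by -0.77 ± 0.148, among 10 negative and 0 positive differences of 13 mitochondrial mRNAs, against 4 negative and 0 positive in the fit without the libraries that hold other transcripts.

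By the same rule, among genes that passed for the difference, the largest differences downward were in ONECUT3 (-4.22 ± 0.373), SLC34A3 (-3.35 ± 0.291), EPS8L2 (-3.11 ± 0.186), COL12A1 (-2.81 ± 0.87), MYO15B (-2.71 ± 0.152) and ANKRD1 (-2.66 ± 0.25). ONECUT3, a transcription factor gene, was at 0.345 CPM in vehicle, 1.37 with 5-FU, 7.97 with chloroquine and 1.68 in the combination. COL12A1, a collagen gene, had 6.15, 6.06 and 3.73 CPM with chloroquine and 0.996, 2.16 and 1.26 CPM in the combination. Its higher values in each group were in the libraries with transcripts of other tissues, chloroquine 1 and 2 and combination 2. In vehicle the highest value, 4.02 CPM, was also in the library that holds them. The fall of COL12A1 was not called in 4 of the alternative settings. ANKRD1, a Hippo pathway target, rose from 2.85, 4.21 and 4.58 to 9.91, 11.7 and 11.2 CPM here, and from 0.797 to 14.3 CPM with 5-FU alone.

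RN7SL1 and RN7SL3 are genes of 7SL RNA, the RNA of the signal recognition particle, and rose by 3.55 ± 0.604 and 4.52 ± 0.662. RN7SL4P and RN7SL5P, whose symbols mark them as pseudogenes of 7SL, rose by 3.88 ± 0.553 and 3.28 ± 0.476. RN7SL1 had 15.3, 17 and 34.4 CPM with chloroquine and 228, 108 and 438 CPM in the combination, with 34.1 ± 21.9 CPM in vehicle and 77.2 ± 38 CPM with 5-FU. The groups were again separate by rule, but the combination libraries spread widely. The differences were 2.37 ± 0.789, 2.49 ± 0.758 and 1.93 ± 0.648 for RN7SL1, RN7SL4P and RN7SL5P, and 1.72 ± 0.277 for BCYRN1, a short RNA related to 7SL that had 47, 43 and 50.1 and 323, 273 and 350.0 CPM. The copies are near-identical, so that single members are uncertain. In each group the counts summed over RN7SL genes were lowest in the libraries that hold transcripts of other tissues. They were 588 and 629 in chloroquine 1 and 2 and 886 in chloroquine 3. In combination 2 they were 3355, against 6819 and 12078 in combination 1 and 3. The rule required only that the rises keep their sign without those libraries.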

How the data were processed

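Total RNA of 13 libraries was sequenced after a directional library preparation, per the labels' protocols. The authors deposited raw counts, as 1 table of gene symbols by libraries. The sources used here do not give the aligner, counting tool, annotation or strand setting. DESeq, without version or role, and GRCm38, a mouse build, appear in the submitters' processing notes, although the symbols are human. No coordinates of the table are therefore printed, and promoter coordinates come from RefSeq on GRCh38.p14. The labels gave each library's group and replicate number, and no 2 libraries held identical values. Residuals of same-numbered libraries of the 2 groups correlated at -0.44, 0.46 and 0.52. Chloroquine 1 and 2 correlated positively only with combination 2 (0.59 and 0.46), and chloroquine 3 only with combination 1 and 3 (0.50 and 0.52). That split is the same as the split by transcripts of other tissues, so the check cannot tell whether the numbers pair the libraries.

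After filterByExpr, 19514 genes and at least 99.84% of each library's counts were left. With R 4.3.3 and edgeR 4.0.16, a quasi-likelihood fit of group means with TMM scaling used all 13 libraries. A gene was called where its p, adjusted by Benjamini-Hochberg over all genes tested, was under 0.05. Contrasts were combination minus chloroquine, 5-FU minus vehicle and their difference. Mean log2 CPM used a prior count of 2. Libraries with at least 50 counts of COL1A2 were taken to hold transcripts of other tissues. The 61 gene lists were described by counts and medians with no set test. The members and lists were chosen with earlier results of these data known. Named genes were the 10 largest called changes in each direction (mean log2 CPM of at least 1, no overlap, same sign without the libraries with other transcripts, no clone-style symbols), the 6 largest differences in each direction, the top 2 rises and 2 falls of lists where 3 or more members were called, and a set of well-known genes of the pathways. Those that describe the lists are printed, and the report says where a gene was chosen otherwise. Some named genes are not reported here. Overlapping genes were looked up in GENCODE 29. The fit was tested on simulated data. Alternatives were DESeq2 1.42.0 size factors and Wald test, limma-voom (limma 3.58.1), library size only, other filters, only the groups compared, a replicate block, a term for the kind of library, either kind alone, a fold threshold of 1 on the log2 scale, and omission of each library in turn.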

Additional observations from a re-analysis of the deposited data

Results flagged for a closer look

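The effect of 5-FU differed with and without chloroquine, by edgeR's test of the difference of the 2 effects, in 4019 genes upward and 3772 downward. Among the genes the report describes, it was higher with chloroquine for PFDN4 (1.04), PSMB6 (0.76), NDUFB9 (0.62), RPF1 (0.89), HSPA1A (1.48), HSPA1B (1.53), RN7SL4P (2.49), RN7SL1 (2.37), RN7SL5P (1.93), BCYRN1 (1.72) and MDM2 (0.41), all as log2 differences. It was lower for GDF15 (-1.45), CDKN1A (-0.75), CHAC1 (-2.07), ASNS (-1.21), STAT2 (-1.61), NEIL1 (-1.94), LIG1 (-1.25), SNHG12 (-1.56), MT-ATP6 (-0.77), GAA (-1.14), ANKRD1 (-2.66), MYO15B (-2.71), EPS8L2 (-3.11), SLC34A3 (-3.35), COL12A1 (-2.81) and ONECUT3 (-4.22).

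Among the 4 vehicle libraries 1 stood apart from the others by Dixon's criterion in 3 of the genes examined: RPF1 was lowest in replicate 3 at 129.7 CPM, GAA was lowest in replicate 4 at 98.8 CPM, and COL12A1 was highest in replicate 4 at 4.02 CPM. Replicate 4 is the vehicle library that holds transcripts of other tissues. Chance flags about 1 in 20 groups.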

How the results depend on the processing

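The counts of 4846 rises and 5021 falls stayed within 1.5 times under every other normalization, test, filter and set of libraries run, from 3243 to 5534 rises and 3569 to 5536 falls. They became 915 and 862 with a threshold of 1 on the log2 scale in addition, which by construction keeps fewer genes. The 4019 higher and 3772 lower differences became 185 and 1621 with that threshold. With library size only the higher differences became 2379, and the lower 5063. Leaving out each library gave 4136 to 4615 rises and 4397 to 4599 falls, and 3439 to 4429 higher and 3263 to 3915 lower differences. The replicate block over all 13 libraries gave 4882 rises, 5090 falls, 3923 higher and 3806 lower differences, and the block in chloroquine and combination alone 5462 and 5408. It changed no count by 1.5 times. A term for the kind of library gave 5171 and 5466. Of 213 named genes 0 reversed and 27 lost their call under at least 1 setting. For genes named by the largest changes or differences, the naming rule itself required the same sign without the libraries that hold other transcripts. Their lack of a reversal in that fit was therefore fixed in advance, and most settings reuse the same libraries. Chloroquine has 1 library without transcripts of other tissues, which limits the fit without them.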
